A study of Mus musculus with 6 samples.

Results

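Expression of 9 genes of serine, one-carbon and asparagine synthesis was examined in T cells with and without CTLA-4. These were Phgdh, Psat1, Psph, Shmt1, Shmt2, Mthfd1, Mthfd2, Ahcy and Asns, and each was followed through all probe sets that the array annotation assigned to exactly 1 of these 9 symbols. These are 9 of the 18193 genes named on the array, and they held 23 of its 45101 probe sets, of which 22 were bright enough to be tested. The genes were chosen on differences between the same arrays, as measured in CTLA-4 KO against wild type, so their differences between genotypes are given as a description and carry no p-values of their own.

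Expression was measured on Affymetrix arrays in T cells of 2 genotypes, with 3 arrays each. All donors carried the 5C.C7 transgenic receptor, which sees a peptide of moth cytochrome c (MCC), and all were RAG2-/- and CD45.1. The wild type group had intact CTLA-4, an inhibitory receptor of activated T cells, and the CTLA-4 KO group was CTLA-4-/- in addition. Cells of both groups were transferred into B10.A recipient mice, which were then given the MCC peptide together with LPS, and on day 4 the transferred cells were sorted. The age of the mice and the number of animals behind an array are not given in the sources used here, so the spread between arrays may be technical in part.

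Proliferating T cells draw on serine as a source of carbon units for nucleotides and methylation. Phgdh, Psat1 and Psph make serine from a glycolytic intermediate, Shmt1 and Shmt2 pass its carbon to folate and release glycine, and Mthfd1 and Mthfd2 interconvert the loaded folates in the cytosol and in mitochondria. Ahcy, S-adenosylhomocysteine hydrolase, clears the by-product of methylation reactions, and Asns, asparagine synthetase, makes asparagine from aspartate. In many cells Asns and the serine enzymes are known targets of ATF4, the transcription factor of the amino acid response.

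The genes lie on chromosomes 3 (Phgdh), 19 (Psat1), 5 (Psph), 11 (Shmt1), 10 (Shmt2), 12 (Mthfd1), 6 (Mthfd2 and Asns) and 2 (Ahcy), per RefSeq, and none is on chromosome 1 with Ctla4. Their promoters, taken as 300 bases from 250 before to 50 after the start in GRCm38.p6, were searched on both strands for TGATGNAA, the core of the element that ATF4 and its C/EBP partners bind, and for the E-box CACGTG. The first was in 1 of 10 promoters of the 9 genes (Psat1 has a pair) and in 3.97% of all 32851 promoters, and the second in none of the 10 and in 7.15% of all. The single match was in Asns. These letters are a description of the window and not a test of binding. The sequences given here, each on the minus strand, are the promoters of Asns (chr6:7693160-7693459), Ahcy (chr2:155074448-155074747) and Phgdh (chr3:98339920-98340219), the genes with a called probe set, and of Mthfd2 (chr6:83317555-83317854), whose probe sets hardly differed. Capitals mark the match to TGATGNAA, which reads TGATGAAA and ends 15 bases before the start.
Asns: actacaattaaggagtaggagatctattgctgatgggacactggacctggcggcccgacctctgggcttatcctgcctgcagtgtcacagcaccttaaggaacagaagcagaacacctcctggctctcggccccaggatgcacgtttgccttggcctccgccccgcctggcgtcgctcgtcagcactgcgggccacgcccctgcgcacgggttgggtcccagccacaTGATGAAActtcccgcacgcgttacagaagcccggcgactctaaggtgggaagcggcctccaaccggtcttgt
Ahcy: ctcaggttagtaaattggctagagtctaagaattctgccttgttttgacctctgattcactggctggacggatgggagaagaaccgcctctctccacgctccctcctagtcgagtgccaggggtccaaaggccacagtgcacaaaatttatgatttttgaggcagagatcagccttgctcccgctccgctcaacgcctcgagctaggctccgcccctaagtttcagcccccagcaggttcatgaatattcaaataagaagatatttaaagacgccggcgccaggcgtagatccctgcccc
Phgdh: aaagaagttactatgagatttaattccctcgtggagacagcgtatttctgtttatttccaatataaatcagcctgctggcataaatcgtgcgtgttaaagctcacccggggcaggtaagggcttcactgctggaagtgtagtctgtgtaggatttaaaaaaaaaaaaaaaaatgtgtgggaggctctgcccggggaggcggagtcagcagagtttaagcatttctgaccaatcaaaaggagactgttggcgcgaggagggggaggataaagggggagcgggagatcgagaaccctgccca
Mthfd2: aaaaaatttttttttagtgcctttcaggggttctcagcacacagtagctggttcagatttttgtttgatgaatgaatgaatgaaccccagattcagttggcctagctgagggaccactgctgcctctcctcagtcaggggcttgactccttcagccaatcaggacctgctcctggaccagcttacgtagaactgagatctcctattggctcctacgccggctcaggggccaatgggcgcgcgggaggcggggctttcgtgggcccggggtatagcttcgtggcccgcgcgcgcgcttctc

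The arrays were comparable in overall signal, and the cells carried T cell transcripts. Medians lay between 62.08 and 75.23 after scaling to 1 trimmed mean of 500.003. Ctla4 fell from 4900 ± 385 to 795 ± 14.4 (SD, n = 3 arrays), a log2 difference of -2.60 ± 0.10 (SE, limma adjusted p = 1.45e-06; exact permutation test, p = 0.1, the smallest that 20 arrangements allow), and the place of its probe set relative to the deletion is not known here. All 9 T cell markers on the array, Cd3e and Cd4 among them, passed the brightness filter, with intensities summing to 62000 to 70500 over wild type arrays and 64400 to 65000 over CTLA-4 KO arrays. Of these 9, Cd3g was lower on every CTLA-4 KO array (8020 ± 933 and 6260 ± 155, log2 difference -0.35 ± 0.10). It was called with the replicate block, a second fit that compares arrays of the same replicate number, and not without it. The other 8 overlapped between genotypes. Markers of CD8 T cells and of other lineages were dim beside the 9 T cell markers, but some passed the filter. For CD8 T cells 2 of 2 did (sums 262 to 422 and 315 to 513), and for myeloid cells 6 of 9 (548 to 628 and 486 to 697). For B cells it was 2 of 7 (244 to 451 and 134 to 320). For NK cells it was 0 of 3 (38.9 to 104 and 41.2 to 88.9), and for erythroid cells 0 of 2 (6.21 to 13.5 and 7.59 to 31.1). The sums of each list overlapped between genotypes. Among their genes, Cd68 of the myeloid list was higher on every CTLA-4 KO array (83.1 ± 22.5 and 132 ± 6.2, log2 difference 0.60 ± 0.23, not called), and Pax5 of the B cell list, under the filter, was lower on every one (46.6 ± 2.11 and 20.4 ± 16.6). The part of these markers in the results was not tested. The ratio of 5' to 3' Actb signal, a sign of RNA integrity, was 0.418, 0.41 and 0.584 on wild type arrays 1, 2 and 3. On their CTLA-4 KO counterparts it was 0.567, 0.691 and 0.544, which overlapped (exact permutation test counting both directions, p = 0.3, where 0.1 is the smallest possible). The same ratio for Gapdh was lower, at 0.103, 0.0955 and 0.25 on wild type and 0.109, 0.205 and 0.178 on CTLA-4 KO arrays (exact permutation test, p = 0.8). By Xist and Eif2s3y, replicate 2 of each genotype came from female donors and the others from male ones.

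Across the 22 tested probe sets the differences leaned towards CTLA-4 KO, with Asns, Ahcy and Phgdh furthest. A probe set was called where its adjusted p in the fit over all 27022 tested probe sets was under 0.05. By that rule 4 of the 22 were called higher and none lower, beside 0.785% higher and 0.47% lower among all probe sets. The replicate block called 10 higher and none lower, beside 3.86% and 4.8% of all. In 10 of the 22 every CTLA-4 KO array lay above every wild type array, which held for 9.46% of all probe sets, and 13 were higher in all 3 pairs, against 18.6%. As the genes were chosen with this contrast known, nothing is read from these shares. The median log2 difference was 0.28 over the 22 probe sets and -0.04 over all, and in pairs 1, 2 and 3 it was 0.40, 0.34 and 0.39 against -0.04 in each pair over all probe sets. In RNA from sorted cells in bulk, more cells that express a gene and more RNA per cell cannot be told apart.

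**Figure D1:**
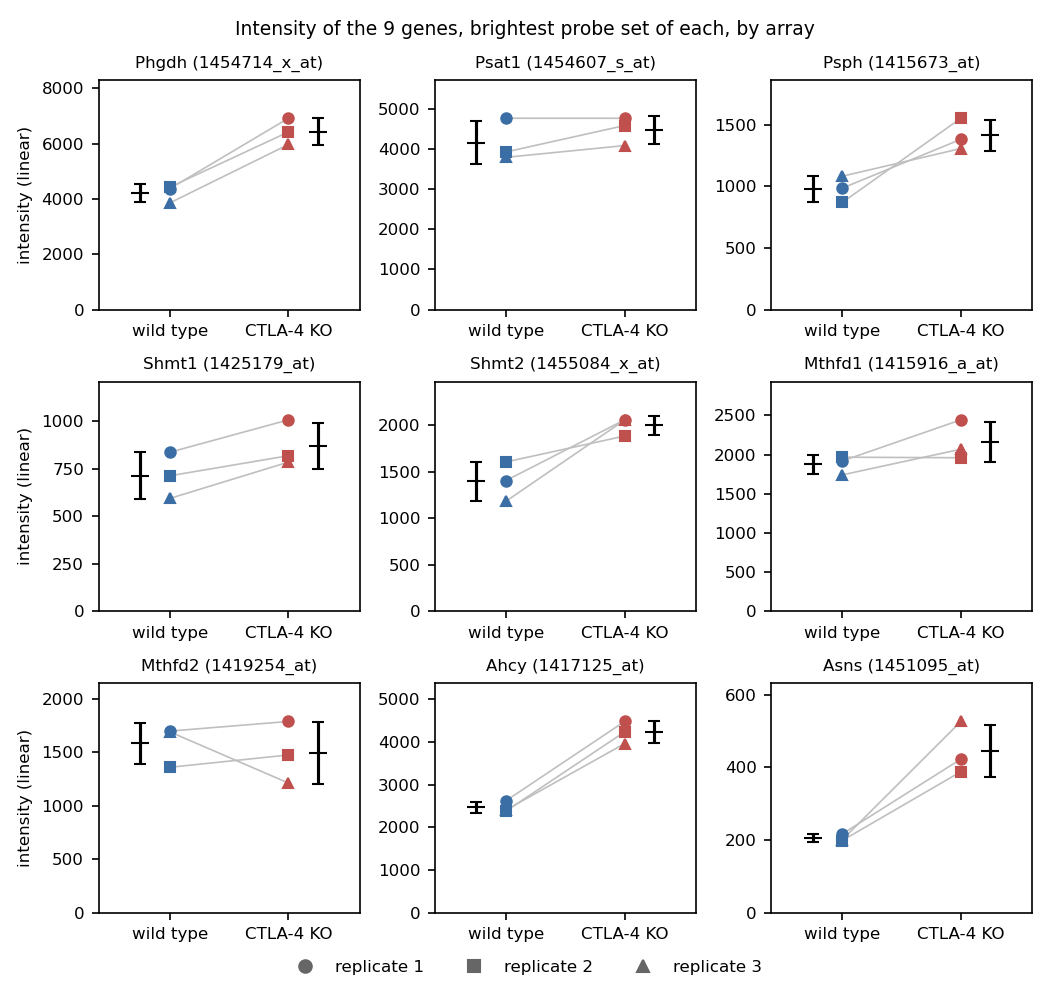
Linear intensity on each of the 6 arrays for the brightest probe set of each gene (blue, wild type; red, CTLA-4 KO; marker shape, replicate number; grey lines join arrays of the same number; black bars, mean ± SD of 3 arrays). Each panel has its own axis from 0. For Phgdh, Psph, Shmt2, Ahcy and Asns the genotypes do not overlap, and for Psat1, Shmt1, Mthfd1 and Mthfd2 they do.

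Asns had the largest difference, and both of its probe sets gave nearly the same value. With probe set 1451095_at its intensities were 216.8, 198.7 and 200.6 on wild type arrays 1, 2 and 3 and 422.6, 388 and 526.3 on their CTLA-4 KO counterparts. The wild type arrays were close together, and the lowest CTLA-4 KO array was well above them. The means were 205 ± 9.97 and 446 ± 72, a fold of 2.17, and the log2 difference was 1.05 ± 0.17 (SE), with 0.91, 0.91 and 1.32 in pairs 1, 2 and 3. The other probe set, 1433966_x_at, read 140.2, 174.8 and 208.5 on the wild type arrays and 331.3, 316.7 and 469.9 on the CTLA-4 KO arrays. Here too the genotypes did not overlap, and replicate 3 was highest in each, with a log2 difference of 1.02 ± 0.21. The suffix _x_at marks probes that may also read other transcripts, but 1451095_at carries no such mark. The promoter of Asns is the one with the TGATGAAA match shown above, and the part of that match in the difference was not tested.

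Ahcy, the enzyme that keeps methylation reactions running, differed by a similar amount in all 3 pairs. Its single probe set, 1417125_at, read 2624, 2382 and 2408 on the wild type arrays and 4481, 4236 and 3962 on the CTLA-4 KO arrays. All CTLA-4 KO arrays were above all wild type arrays, with the highest wild type array far below the lowest CTLA-4 KO one. The fold of the means was 1.71 (2470 ± 133 and 4230 ± 260), and the log2 difference was 0.77 ± 0.10, with 0.77, 0.83 and 0.71 in the 3 pairs. This probe set was called whichever array was left out.

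Of the 3 enzymes that make serine, the first and last were higher on all CTLA-4 KO arrays and the middle one was not. Phgdh, the first, dehydrogenates 3-phosphoglycerate, and its 4 probe sets had log2 differences of 0.46 to 0.61. The one that was called, 1454714_x_at, had 4372, 4427 and 3856 on the wild type arrays and 6920, 6423 and 5971 on the CTLA-4 KO arrays, a log2 difference of 0.61 ± 0.10. Replicate 3 was lowest in both genotypes, and the groups did not overlap. The others had 0.49 ± 0.11 (1437621_x_at), 0.47 ± 0.13 (1426658_x_at) and 0.46 ± 0.10 (1456584_x_at), none overlapping between genotypes, and were called with the replicate block. All 4 carry the _x_at mark, so near-identical transcripts may add to their signal.

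Psph, which removes the phosphate in the last step, read 985.7, 869.5 and 1083 on the wild type arrays and 1383, 1554 and 1308 on the CTLA-4 KO arrays. The groups did not overlap, but replicate 2 was lowest in one genotype and highest in the other. Its log2 difference was 0.53 ± 0.13, with 0.48, 0.83 and 0.27 in the pairs, and it was called with the replicate block and not without it. Psat1, the aminotransferase between them, read 4779, 3937 and 3803 on the wild type arrays and 4778, 4597 and 4096 on the CTLA-4 KO arrays with its brighter probe set, 1454607_s_at. Replicate 1 was nearly the same in both genotypes, and the groups overlapped. The log2 differences of its probe sets were 0.11 ± 0.11 and 0.16 ± 0.14 (1451064_a_at), and neither was called with or without the block.

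The differences of the hydroxymethyltransferases depended on the probe set. For Shmt2, the mitochondrial enzyme, the brightest probe set 1455084_x_at read 1403, 1603 and 1181 on the wild type arrays and 2055, 1881 and 2053 on the CTLA-4 KO arrays. These groups did not overlap, and the log2 difference was 0.52 ± 0.13, not called without the block but called with it and with the Gapdh 5' to 3' ratio as a term. Its other 3 probe sets had 0.28 ± 0.18 (1426423_at), 0.26 ± 0.20 (1455985_x_at) and 0.20 ± 0.27 (1434204_x_at), each with overlapping genotypes and no call, and the last of these reached -0.03 with 1 array left out. For Shmt1, the cytosolic enzyme, 3 probe sets were tested, with differences of 0.28 ± 0.16 (1425179_at), 0.20 ± 0.14 (1425177_at) and 0.18 ± 0.18 (1425178_s_at). None was called with or without the block. With 1425177_at the wild type arrays read 476.4, 474.4 and 488.7 and the CTLA-4 KO arrays 648.5, 514.2 and 509.2, so the groups did not overlap, and CTLA-4 KO replicate 1 stood furthest from the wild type arrays. The fourth, 1422198_a_at, was under the filter floor of 35.4 in its mean and was not tested, with 42.82, 13.1 and 21.63 on the wild type arrays and 15.08, 13.61 and 15.1 on the CTLA-4 KO arrays.

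Of the folate enzymes downstream of them, Mthfd2 hardly differed and Mthfd1 was not read alike by its probe sets. Mthfd2, the mitochondrial dehydrogenase, read 1696, 1358 and 1689 on the wild type arrays and 1786, 1473 and 1211 on the CTLA-4 KO arrays with 1419254_at. CTLA-4 KO was slightly higher in pairs 1 and 2 and lower in pair 3, and the groups overlapped widely. Its log2 differences were -0.09 ± 0.16 and 0.02 ± 0.15 (1419253_at). With other processing or 1 array left out they ran from -0.23 to 0.04 and from -0.13 to 0.15. With 1419254_at the sign was positive only without CTLA-4 KO replicate 3. Mthfd1, the cytosolic enzyme, had 0.45 ± 0.15 with 1415917_at, which read 1478, 1129 and 1306 on the wild type arrays and 2045, 1868 and 1464 on the CTLA-4 KO arrays and was called with the block only. The overlap there came from wild type replicate 1, which was just above CTLA-4 KO replicate 3. Its other probe sets had 0.20 ± 0.12 (1415916_a_at) and -0.04 ± 0.20 (1436704_x_at), neither called. The last lay between -0.25, without wild type replicate 2, and 0.14, without wild type replicate 1. Thus 1415917_at and 1415916_a_at stayed positive in all fits (0.31 to 0.59 and 0.10 to 0.33), and 1436704_x_at lay within its SE of 0.

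**Figure D2:**
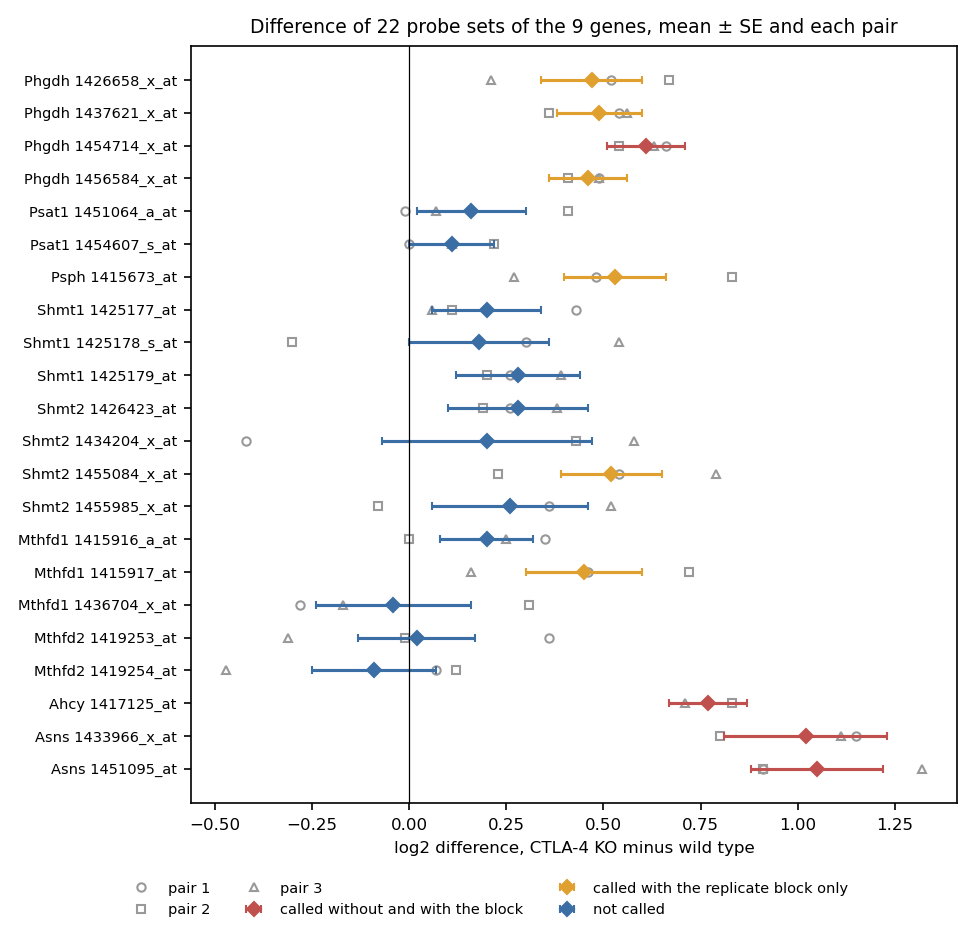
Log2 difference of CTLA-4 KO minus wild type for the 22 tested probe sets (diamonds, with SE from the fit) and in each of the 3 pairs of arrays (open grey markers). Red marks the 4 probe sets called with and without the replicate block, amber the 6 called with it and not without it and blue the other 12, and Asns, Ahcy and Phgdh hold the red ones.

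Except for Ahcy, the calls did not hold in every fit with 1 array left out. Over all probe sets the calls also fell in those fits, from 339 to between 62 and 217. Of the 4 called probe sets, 3 were still called without wild type replicate 1, and 2 without wild type replicate 2, without CTLA-4 KO replicate 1 or without CTLA-4 KO replicate 3. Only Ahcy was called when the array left out was wild type replicate 3 or replicate 2 of CTLA-4 KO. Across these 6 fits Phgdh 1454714_x_at was called in 3, Asns 1451095_at in 2 and Asns 1433966_x_at in 0, while their log2 differences stayed within 0.55 to 0.66, 0.93 to 1.14 and 0.85 to 1.15. None of the 22 was called without the intensity trend or in the arrays of male donors alone, where 20 and 46 of all probe sets were called. In male arrays the log2 differences were 1.12 (1451095_at) and 1.13 (1433966_x_at) for Asns, 0.74 for Ahcy and 0.64 for Phgdh 1454714_x_at. Nor was any of the 22 called when the 5' to 3' ratio of Actb entered the model, where 21 of all probe sets were called. With that ratio the log2 differences were 1.18 ± 0.23 (1451095_at) and 0.99 ± 0.30 (1433966_x_at) for Asns, 0.78 ± 0.14 for Ahcy and 0.69 ± 0.13 for Phgdh 1454714_x_at, and the SE of the 22 grew by a factor of 1.39 at the median.

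Variation among arrays of 1 genotype, which does not use the contrast, was compared next, taking the brightest probe set of each gene and removing each genotype's mean. Over the 6 arrays Ahcy varied with Psat1 (Pearson's r = 0.93), Mthfd2 (0.85) and Shmt1 (0.83), and Phgdh varied with Shmt1 (0.88), Mthfd1 (0.79) and Psat1 (0.70). Asns followed none of the others closely, with r between -0.50 (Psph) and 0.21 (Shmt2). Psph ran against Shmt2 (-0.92) and Mthfd1 (-0.58). These values hold for the brightest probe set, as the probe sets of 1 gene did not always vary together. Those of Phgdh had r of -0.86 to 0.77 with each other (median 0.05), and those of Shmt2 -0.48 to 0.48 (median -0.06). Different probe sets of 1 gene had a median r of 0.30 over 21 pairs of probe sets (-0.86 to 0.97), and probe sets of different genes 0.13 over 210 (-0.94 to 0.99). The 6 arrays share overall signal and RNA quality and leave few degrees of freedom, so these values are a description. Arrays of the same number also deviated together over all probe sets (r = 0.371, 0.24 and 0.254 for replicates 1, 2 and 3), and the part of that shared deviation in these correlations was not tested.

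**Figure D3:**
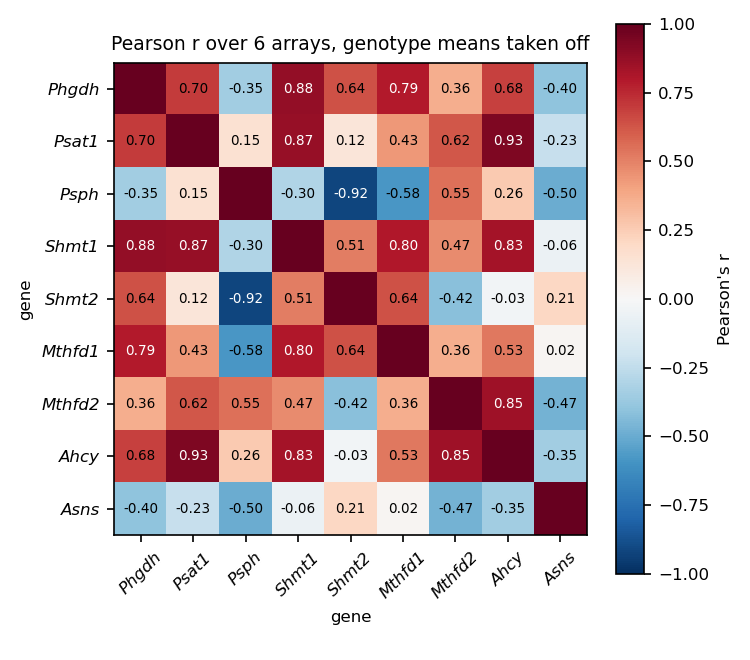
Pearson's r between the 9 genes (brightest probe set each) over 6 arrays after each genotype's mean was taken off, from -1 (blue) to 1 (red). Ahcy with Psat1 is the highest at 0.93, Psph with Shmt2 the lowest at -0.92, and the row of Asns has no value above 0.21.

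Of the genes at neighbouring steps of these pathways, none was called without the block. Lists of the neighbouring steps held 90 genes, 69 of them tested with 1 probe set each. In limma 0 of the 69 passed in either direction, beside 1.19% higher and 0.5% lower among 11990 genes, and 10 (14.5%) had an unadjusted p under 0.05, beside 16.6% of all genes. With the replicate block 9 were higher and none lower, beside 5.49% and 3.47% of all genes. Of the 71 other probe sets of these genes, the block called 1 higher (Adk) and 1 lower (Srr). By 1 probe set each, the 69 genes had a median log2 difference of 0.11. It was 0.00 over all genes and 0.52 for the 9 enzymes, which had been picked with these values known.

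The serine and glycine list (8 of 14 tested) had a median of 0.08. Gcsh, the carrier protein of glycine cleavage, had 3130 ± 460 and 3920 ± 203 (limma adjusted p = 0.209; replicate block, 0.0467), and Sars2, the mitochondrial seryl-tRNA synthetase, 202 ± 81.8 and 301 ± 14.9 (0.255 and 0.0643). Srr, serine racemase, differed by -0.12 ± 0.16 with its brightest probe set, but by -1.09 ± 0.23 with another (limma adjusted p = 0.0514; replicate block, 0.00563), and its remaining probe sets had -0.46 to 0.05. The folate list (14 of 16) had a median of 0.08 as well. Atic, which closes the purine ring with folate-bound carbon, had 1060 ± 232 and 1720 ± 404 (limma adjusted p = 0.121; replicate block, 0.00398), though its other probe set differed by 0.15. The reduced folate carrier Slc19a1 had 1640 ± 95.2 and 1930 ± 110 (0.323 and 0.168).

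The methionine cycle and transsulfuration list (15 of 20) had a median of 0.13. Next to Ahcy in this cycle, Adk, which phosphorylates the adenosine that Ahcy releases, had 6070 ± 442 and 7760 ± 200, a log2 difference of 0.35 ± 0.09 (limma adjusted p = 0.0869; replicate block, 0.0255). Its 4 other probe sets had -0.36, 0.40, 0.43 and 0.60. Spermidine synthase, Srm, had 1930 ± 129 and 2610 ± 140 (limma adjusted p = 0.0751; replicate block, 0.0108). In the aspartate, asparagine and glutamine list (12 of 17, median 0.09) none passed with the block either. Nars, which loads asparagine onto its tRNA, had 3920 ± 464 and 4460 ± 212 (limma adjusted p = 0.422), and Gpt2, the mitochondrial alanine aminotransferase, 67.8 ± 11.8 and 43.9 ± 12 (0.404).

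The amino acid response list (20 of 23), which holds Atf4, kinases upstream of it and its known targets, had a median of 0.15. Of the 20, 14 had a positive difference, beside 6024 of all 11990 genes, and 5 were higher with the block, beside 5.49% of all genes. Eif4ebp1, a brake on translation initiation, had 445 ± 22.5 and 689 ± 81 (limma adjusted p = 0.0668; replicate block, 0.00863), but its other probe sets differed by 0.27 and 0.21. Gars, the glycyl-tRNA synthetase, had 3340 ± 142 and 4360 ± 234 (0.0793 and 0.0154). The other 3 higher with the block were Trib3 (153 ± 42.9 and 257 ± 21.2), Aars (2470 ± 519 and 3210 ± 448) and Ddit4 (1890 ± 1280 and 2580 ± 721). Without the block their limma adjusted p was 0.128, 0.27 and 0.504. The values of Trib3 come from 1456225_x_at, and its other probe set, without the _x_at mark, differed by 0.46 ± 0.21. That of Aars differed by 0.29 ± 0.16, and neither of these other probe sets was called with the block. Ddit4 differed by 1.37, 0.59 and 0.02 in pairs 1, 2 and 3. Eif2ak4, a kinase that senses uncharged tRNA, and Ddit3, a stress transcription factor, were lower on the CTLA-4 KO array of all 3 pairs, and neither passed with or without the block. Eif2ak4 had 578 ± 101 and 431 ± 102 (limma adjusted p = 0.34; replicate block, 0.061), and Ddit3 457 ± 65 and 367 ± 50.1 (0.42 and 0.197). Atf4 itself read 2122, 2394 and 2522 on the wild type arrays and 2005, 2433 and 2720 on the CTLA-4 KO arrays. The groups overlapped fully, with a log2 difference of 0.02 ± 0.13 (limma adjusted p = 0.965), and 0.29 ± 0.12 with its other probe set (0.292).

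**Figure D4:**
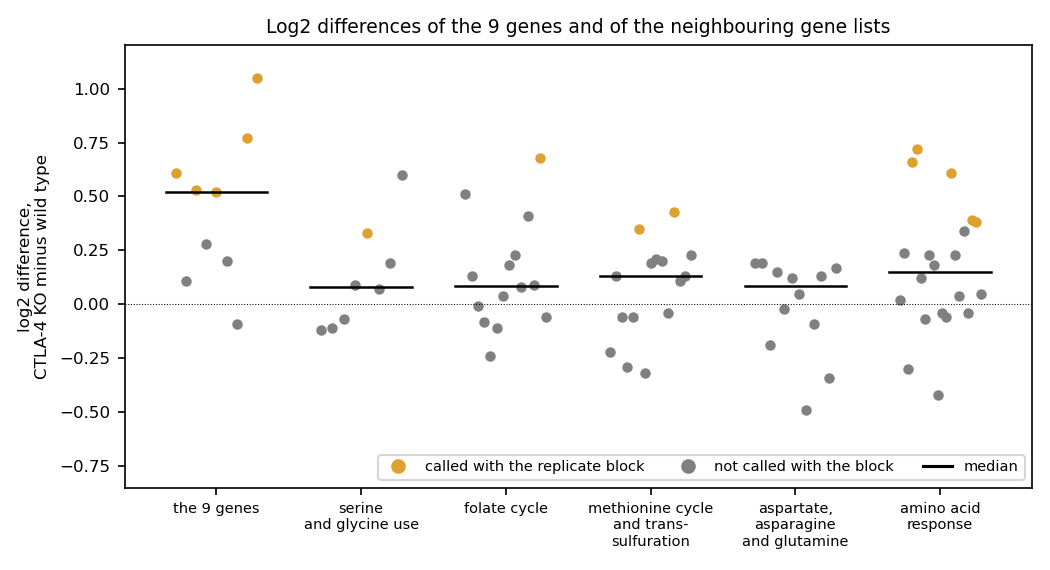
Log2 difference of CTLA-4 KO minus wild type for the 9 enzymes and for 5 lists of neighbouring genes, each gene by its brightest tested probe set (points; amber, called with the replicate block; black lines, medians). The medians of the lists lie between 0.08 and 0.15 and that of the 9 enzymes, picked with these values known, at 0.52.

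The genes whose profile over the 6 arrays was most like the mean centred log2 profile of the 9 enzymes were Kif4 (Pearson's r = 0.997), Acot7 (0.995), Ilf2 (0.993), Map2k3 (0.993), Nme1 (0.992) and Slc12a2 (0.991). The profile itself was -0.13, -0.24 and -0.29 on wild type arrays 1, 2 and 3 and 0.32, 0.19 and 0.15 on their CTLA-4 KO counterparts, so its main feature was the step between genotypes, and these genes share it because they were picked for likeness to it. Kif4, a motor protein of mitotic chromosomes, had 251 ± 18.8 and 443 ± 42.7, and Acot7, an acyl-CoA thioesterase, 1490 ± 101 and 2240 ± 129.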

How the data were processed

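Total RNA from sorted T cells was extracted with Trizol and hybridised to Affymetrix arrays as biotin-labelled cRNA made from 2 µg, per the labels' protocols. The authors deposited 1 linear intensity per probe set and array, made with Partek and MAS5 according to the submitters' processing notes, so background correction and scaling preceded deposit. Values were turned into log2(intensity + 16), on which dim genes show understated changes. The 64 control probe sets were left out, and probe sets entered the tests where their mean log2 value was at or above percentile 40, which is 35.4 on the intensity scale. Linear models were fitted with limma 3.58.1 in R 4.3.3 using lmFit and trended eBayes, which leaves 4 residual degrees of freedom. Its p-values are two-sided and were adjusted by Benjamini-Hochberg over the 27022 probe sets tested. The fit was tested on simulated data. The number of arrays limits the precision.

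Both genotypes have arrays numbered 1, 2 and 3 in the titles. Same-numbered arrays deviated together from their genotype means (r = 0.371, 0.24 and 0.254), so differences are also given by pair. The fit behind the calls, the SE and the results with 1 array left out has no block for the pairs, since no source states them. A second fit with that block is given where it changes a call.

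Gene names came from the array annotation (1 gene for 34958 probe sets, several for 932 and none listed for 9211), updated by gene ID to RefSeq, which matched 34754. In lists, a gene stands by its kept probe set with the highest mean. Named were all 9 genes, Ctla4, the called genes of each list or else the 2 with the smallest p, and the 6 genes most like the mean profile. Trib3, Aars, Ddit4, Atf4, Eif2ak4, Ddit3, Srr, Cd3g, Cd68 and Pax5 were picked with their values in view. The members and lists were chosen with earlier results of these data known. Proteins were not analysed here.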

Additional observations from a re-analysis of the deposited data

Results flagged for a closer look

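Phgdh was also read by 2 probe sets that the annotation assigns to a second gene as well and that were therefore kept out of the comparisons. Both were higher on every CTLA-4 KO array. The probe set 1426657_s_at, listed for Gm8096 and Phgdh, read 1674, 1256 and 1420 on the wild type arrays and 2364, 2224 and 1852 on the CTLA-4 KO arrays, a log2 difference of 0.56. The probe set 1456471_x_at, listed for Gm6756 and Phgdh, read 1667, 1584 and 1611 on the wild type arrays and 2374, 2202 and 2499 on the CTLA-4 KO arrays, a log2 difference of 0.54. Both lay within the 0.46 to 0.61 of the 4 probe sets listed for Phgdh alone.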

How the results depend on the processing

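Over all probe sets 339 were called, of which 62.5% were higher. This became 21 with the Actb ratio in the model, 521 with array weights, 46 in male arrays alone, 111 with no filter on dim probe sets, 20 without the intensity trend, 2341 with the replicate block, and 62 to 217 with 1 array left out. Centring each array on its median called 460, of which 73.5% were higher, and moved the median of all probe sets from -0.04 to 0.02. Of the enzymes' probe sets 4 were called, against 10 with the replicate block, 2 with no dimness filter, 0 with the Actb term, in male arrays or without the trend, and 1 to 3 with 1 array left out. All calls of the enzymes' probe sets in these fits were higher in CTLA-4 KO. Their median log2 difference of 0.28 became 0.38 with the Actb term, 0.32 with the Gapdh ratio as a term, 0.34 under median centring, 0.35 in male arrays, 0.32 after quantile normalization, and 0.28 to 0.41 with 1 array left out. Of the neighbouring genes 0 were called, against 9 with the replicate block, 1 (Eif4ebp1) under median centring and 2 (Srm and Gars) when all probe sets of a gene were averaged. The cause of these shifts was not tested. The block leaves the log2 differences as they are, and Ctla4 was called in all 18 alternatives, at log2 differences of -2.64 to -2.53. With 3 arrays a group, differences as small as those of Psat1 and Shmt1 were not separable from the spread between arrays.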
